A study of Mus musculus with 17 samples.

Results

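Long noncoding RNA was compared between the left ventricle (LV) of the mouse heart at postnatal day 7 (P7) and postnatal day 3 (P3), the second of 2 steps sampled after birth. Libraries were assigned by their titles, which gave 3 libraries at P7 and 3 at P3, or 6 of the 17 libraries of the series. All mice were male C57Bl/6, with no treatment listed. The labels describe P3 as a transition stage and P7 as the stage at which nearly all cardiomyocytes have terminally differentiated. Each library was a biological replicate made from total RNA of 1 ventricle type with a strand-specific, paired-end protocol, but the labels do not say whether animals were pooled or whether the LV and the right ventricle (RV) came from the same animals. Libraries of the LV at postnatal day 0 (P0) were taken before the fetal duct between the great arteries closes. These and the RV libraries of P0, P3 and P7 are given below as reference values. They also entered the row filter and the shared estimate of spread behind the LV test.

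Long noncoding RNAs are transcripts without a long open reading frame. Some are transcribed beside or antisense to protein-coding genes, some host microRNAs, and many have no known role. In the first week after birth, the mouse LV takes on the systemic pressure load, cardiomyocytes leave the cell cycle, and the heart exchanges fetal for adult forms of contractile and metabolic genes. Well-known examples are the decline of beta-myosin heavy chain (Myh7) and the rise of alpha-myosin heavy chain (Myh6).

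The tables held 23940 rows, each a transcript with an ID, mostly a position, and a value read as FPKM (fragments per kilobase of transcript, scaled to the depth of the library). A row was tested when it reached 0.1 FPKM in at least 2 of the 17 libraries, which left 11079 rows. By the spacing of low values, 1 FPKM over 1 kilobase stands for 17.91 to 18.97 fragments in the P3 libraries and 16.62 to 18.21 in the P7 libraries. Positions are printed as deposited. As a whole they could not be placed on mm10, the build in the submitters' processing notes, and are taken as mm9, a build the tables do not name. Gene names come from a match of span and spacing to reference transcripts, which named 4229 rows, so most rows carry an ID only. Strand is not given, and overlapping rows can share reads. RNA from whole ventricle was measured, so fewer cells of a type and less RNA per cell cannot be told apart.

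The P3 libraries differed among themselves at mitochondrial rows. Row NONMMUT071594, at chrM:9203-9888 over parts of mt-Co3 and mt-Nd3, was at 162, 25.8 and 157 FPKM in P3 replicates 1, 2 and 3, and at 16.97, 21.8 and 15.3 FPKM at P7. P3 replicate 2 therefore lay near the P7 libraries and P3 replicates 1 and 3 stood apart. In the RV, P3 replicates 1 and 3 were likewise high, at 132 and 140 FPKM, against 7.93 FPKM in replicate 2. The P0 libraries were split too. P0 replicate 3 was at 247 FPKM in the LV and 198 FPKM in the RV, against 10.7 to 23.9 FPKM in the other P0 libraries. The most abundant row, NONMMUT071578, starts at the annotated start of the large mitochondrial ribosomal RNA gene mt-Rnr2 and also overlaps mt-Tl1 and mt-Nd1. It was at 12893, 20023 and 17363 FPKM at P3 and at 21538, 22890 and 20696 FPKM at P7. All P7 values lay above all P3 values, but its log2 change of 0.40 ± 0.11 (SE) did not pass the test (limma adjusted p = 0.0919). The abundant one of 2 tested rows with the ID NONMMUT071574, at the small ribosomal RNA gene mt-Rnr1, was at 1048, 1515 and 1065 FPKM at P3 and at 2176, 2840 and 1599 FPKM at P7 (log2 change 0.85 ± 0.30 SE, limma adjusted p = 0.216). The other row with that ID and position was at 3.13, 3.84 and 2.78 FPKM at P3 and at 2.15, 3.34 and 3.58 FPKM at P7 (log2 change -0.12 ± 0.27 SE). The summed value of all rows outside the mitochondrial genome was 12155, 9718 and 11247 FPKM at P3 and 9971, 9631 and 9874 FPKM at P7, so P3 replicate 2 was nearest to P7 here too. The share of rows listed at 0 ran from 34.5 to 44.5% at P3 and from 47.6 to 48.7% at P7. Fits that take up these library differences are given beside the counts of calls and the leading rows.

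**Figure D1:**
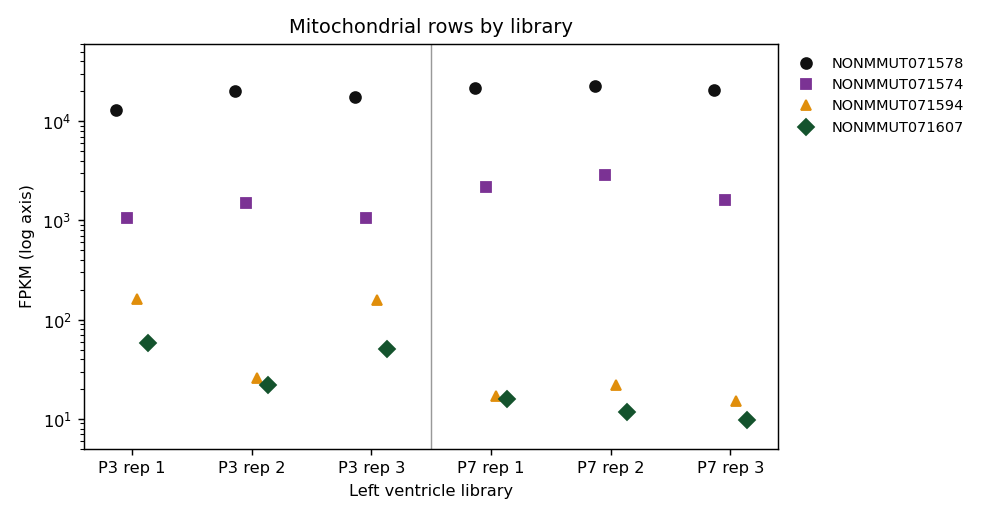
Values of 4 mitochondrial rows in each left ventricle library, in FPKM on a log axis, with 1 symbol per row and library and a vertical line between P3 and P7. P3 replicate 2 lies with the P7 libraries at NONMMUT071594 (25.8 FPKM, against 162 and 157 FPKM in the other P3 libraries).

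Between P3 and P7, 148 rows changed, 30 of them higher and 118 lower at P7. These are 1.34% of the rows tested, with 0.271% higher and 1.07% lower (limma, Benjamini-Hochberg adjusted p under 0.05). Over 1 log2 unit, 23 rows rose and 93 fell. For all 148 rows, the 3 P7 libraries lay wholly above or wholly below the 3 P3 libraries. The same separation was seen at 3.92% of all rows tested in the higher direction and at 13.8% in the lower direction. The median log2 change over all rows tested was -0.22, and 68.3% of rows were below 0, so the lower calls stand on a downward shift of the whole table. After each library was shifted to a common median, which took the median change to 0.02, the calls were 76 higher and 52 lower, and 82 of the 148 rows remained called. The direction of the split is therefore not the same under both scalings.

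The number of calls depended on single libraries. Without P3 replicate 1 it was 18 and without P3 replicate 3 it was 37, while without P3 replicate 2 it was 201. Without P7 replicates 1, 2 and 3 it was 95, 56 and 52. The level of row NONMMUT071594 was also fitted as a library term, high in P3 replicates 1 and 3 and in P0 replicate 3 of both ventricles. With it, 51 rows were called, 19 higher and 32 lower, of which 47 were among the 148. That term was chosen after seeing the data. The planned term split all libraries by the sum of the rows at the mitochondrial ribosomal RNA genes, among them NONMMUT071578, which also overlaps mt-Nd1. That sum was higher in all P7 libraries and in P3 replicate 2. With this term, 14 rows were called, 5 higher and 9 lower, all among the 148. With only the libraries of that higher set, 13 were called, and with only those at the low level of NONMMUT071594, 4. Both of these fits keep P3 replicate 2 as the lone LV library at P3, whose spread is assumed to equal that of the other groups. P3 replicate 2 was the P3 library nearest to P7 at 95 of the 148 rows, 85 of them among the 118 lower rows. Over all rows tested, it was the lowest P3 library, alone or tied with another, at 58.1%. Ties were not counted apart, so this share is not a direct background for the lower calls. Measured from P3 replicate 2, the lower rows had a median log2 change of -1.13, against -1.503 from replicates 1 and 3. For the higher rows the 2 values were 1.34 and 1.33.

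**Figure D2:**
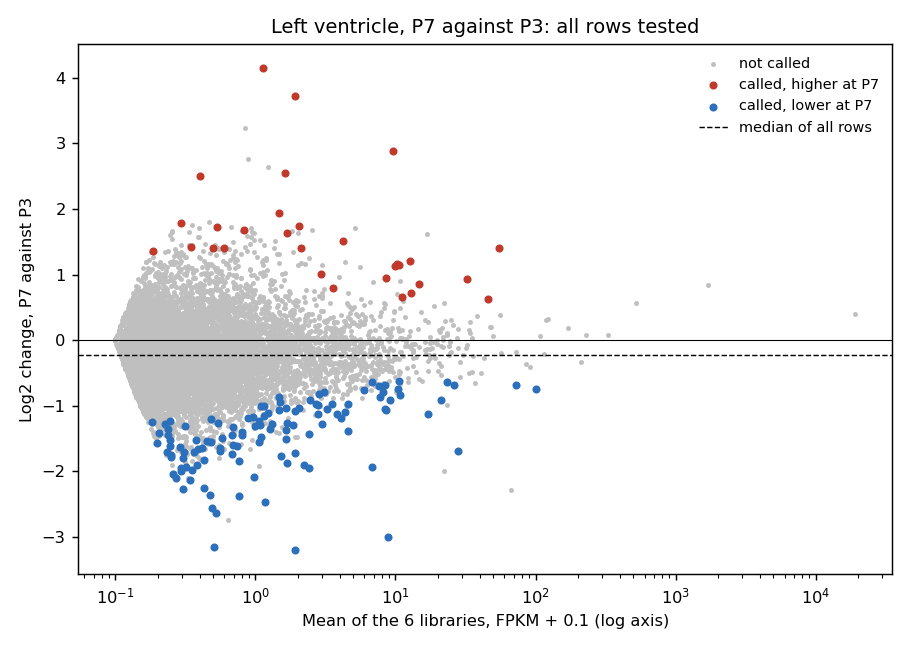
Log2 change from P3 to P7 in the left ventricle against the mean of the 6 libraries in FPKM + 0.1 (log axis), 1 point per row tested, with rows called higher in red and lower in blue. The dashed line marks the median of all rows, -0.22, and the called rows comprise 30 above 0 and 118 below it.

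The rows that rose most included 2 that were at or near 0 until P3. Row NONMMUT029111 (chr17:32044822-32046318) was listed at 0, 0 and 0.0721 FPKM at P3 and at 1.60, 2.41 and 2.16 FPKM at P7. It was listed at 0 in all P0 libraries, and only P7 libraries held more than a trace. Its change was 4.15 ± 0.36 (SE) on the log2(FPKM + 0.1) scale, which understates changes of low rows (limma adjusted p = 3.5e-06). Row TCONS_00038901 (chr3:63285069-63287868) was at 0.194, 0.192 and 0.102 FPKM at P3 and at 3.68, 4.49 and 2.20 FPKM at P7, having been listed at 0 in every P0 library. Its log2 change was 3.72 ± 0.40 (SE, limma adjusted p = 6.7e-05). The groups were far apart at both rows, and both were called under all 21 alternative fits.

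Row NONMMUT063992 reached a higher level than these 2 rows. At chr7:140939248-140945536, it was at 1.48, 3.01 and 1.97 FPKM at P3 and at 9.51, 20.5 and 20.4 FPKM at P7, with 0.516 to 1.09 FPKM at P0 (log2 change 2.88 ± 0.43 SE, limma adjusted p = 0.00154). All P7 libraries lay far above the highest P3 library. Row NONMMUT049230 (chr4:119963955-119976497) was at 0.371, 0.620 and 0.523 FPKM at P3 and at 2.76, 1.69 and 2.21 FPKM at P7, and at 0 to 0.0118 FPKM at P0. Its log2 change was 1.94 ± 0.30 (SE, limma adjusted p = 0.00224). Levels of both rows stood in the order P0, P3, P7 without overlap.

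Row TCONS_00045588 (chr5:122559392-122563765) rose from 6.80, 8.01 and 7.98 FPKM at P3 to 17.7, 17.2 and 17.8 FPKM at P7. Its P0 libraries were at 8.42 to 10.9 FPKM, so P3 was the lowest of the 3 ages. The P7 libraries differed little (SD 0.344 FPKM, n = 3), and the log2 change was 1.20 ± 0.16 (SE, limma adjusted p = 0.000546). In RefSeq gene order the row lies in a stretch that holds Cux2, Gm52786, Myl2, Ccdc63 and Ppp1cc. Myl2 encodes the ventricular regulatory myosin light chain, and Ppp1cc a catalytic subunit of protein phosphatase 1. No gene of the stretch was assigned to the row. Row NONMMUT003236 (chr1:157367347-157375060) rose at a lower level, from 0.274, 0.272 and 0.336 FPKM at P3 to 1.51, 0.982 and 1.04 FPKM at P7, with 0.326 to 0.657 FPKM at P0, where the range overlapped that at P3 (log2 change 1.68 ± 0.28 SE, limma adjusted p = 0.00664). These 6 rows were called with any 1 of the 6 libraries left out and with NONMMUT071594 as a library term. With the ribosomal RNA set as a term, NONMMUT063992, NONMMUT049230 and NONMMUT003236 lost the call (limma adjusted p = 0.0680, 0.0536 and 0.0536). With only P3 replicate 2 kept at P3, these 3 rows and TCONS_00045588 lost it under both splits (limma adjusted p 0.0684 to 0.423), and NONMMUT049230 also lost it with a pseudocount of 0.01 (0.104). Over the 21 alternatives, limma adjusted p ran from 7.785e-05 to 0.423 for NONMMUT063992, from 0.000109 to 0.386 for NONMMUT049230, from 0.00289 to 0.293 for NONMMUT003236 and from 0.000283 to 0.145 for TCONS_00045588.

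The other 9 of the 15 highest-ranked risers lost the call without at least 1 library. The most abundant was NONMMUT000571 (chr1:36587039-36588149), at 28.1, 26.2 and 36.3 FPKM at P3 and at 67.2, 84.8 and 86.6 FPKM at P7, after 8.42 to 18.1 FPKM at P0. Its values did not overlap between any 2 of the 3 ages. Its log2 change was 1.40 ± 0.26 (SE, limma adjusted p = 0.0116), and the limma adjusted p was 0.0685 without P3 replicate 1, 0.0530 without P7 replicate 2 and 0.0555 without P7 replicate 3, within a range of 0.000663 to 0.386 over the 21 alternatives. The row lies in a stretch of Cnnm4, Cnnm3, Ankrd23, Ankrd39 and Sema4c. Ankrd23 encodes an ankyrin repeat protein of the muscle sarcomere. Row TCONS_00014813 (chr13:53111296-53113855) rose from 0.128, 0.760 and 0.402 FPKM to 2.26, 2.46 and 3.13 FPKM (log2 change 2.54 ± 0.46 SE, limma adjusted p = 0.0109, and 0.0685 without P3 replicate 1, in a range of 0.000109 to 0.398 over the 21 alternatives).

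Among the remaining 7, NONMMUT001691 rose from 1.34, 0.628 and 1.29 FPKM to 3.81, 2.25 and 2.80 FPKM, in a stretch that holds Rhbdd1, the collagen IV chains Col4a4 and Col4a3, C430014B12Rik and Mff, which encodes a mitochondrial fission factor. TCONS_00039462 rose from 2.42, 1.74 and 2.19 FPKM to 6.85, 5.87 and 5.84 FPKM. These 2 rows, NONMMUT067582 and TCONS_00035070 lost the call whichever of the 6 libraries was left out (limma adjusted p 0.0504 to 0.250). TCONS_00060422 kept it only without P3 replicate 2, and its limma adjusted p without another library was 0.0892 to 0.207. NONMMUT050323 lost it without P3 replicates 1 and 3 and P7 replicates 1 and 3 (0.0504 to 0.0865). NONMMUT022092, a row without a position, lost it without P3 replicates 1 and 3 and P7 replicates 2 and 3 (0.0968 to 0.124). The log2 changes of these 7 rows were between 1.40 and 1.74, and no P7 library overlapped a P3 library at any of them.

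**Figure D3:**
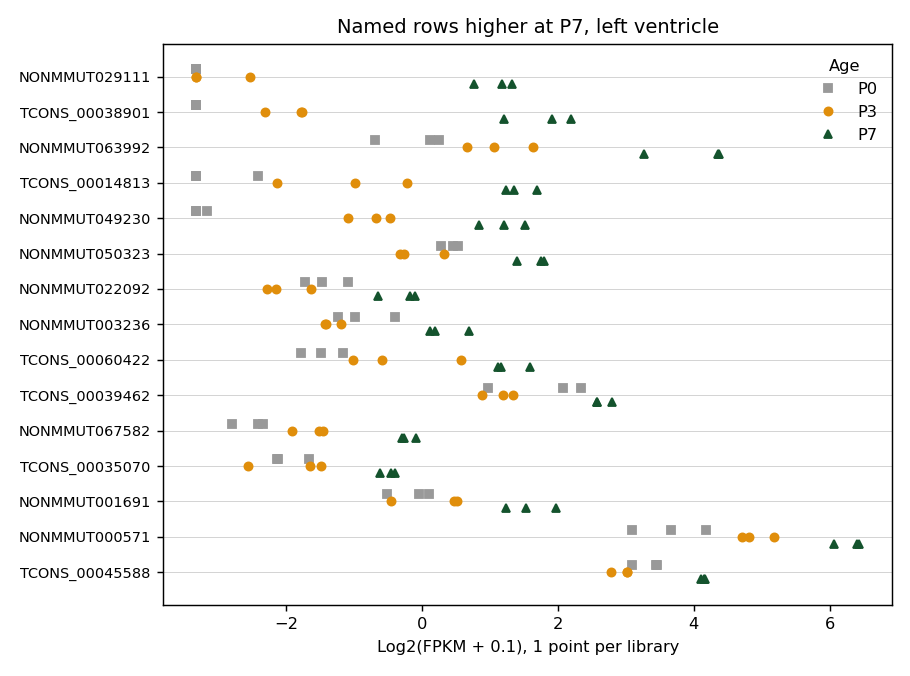
Log2(FPKM + 0.1) of the 15 highest-ranked risers in each left ventricle library, 1 point per library, at P0 (squares), P3 (circles) and P7 (triangles). The P7 points lie to the right of all P3 points in every row, and at TCONS_00045588 the P3 points also lie to the left of all P0 points.

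The rows that fell most included several with P0 values above those at P3. Row NONMMUT011874, which has no position, was at 16.5, 14.9 and 15.2 FPKM at P3 and at 2.19, 1.49 and 1.91 FPKM at P7, after 57.6, 45.6 and 39.9 FPKM at P0. Its mean at P3 was 8.32 times its mean at P7, with a log2 change of -3.01 ± 0.23 (SE, limma adjusted p = 1.01e-06), and it was called under all 21 alternatives. Row TCONS_00049214 (chr6:87387308-87387671) was at 0.878, 1.01 and 0.537 FPKM at P3 and listed at 0 in all P7 libraries, after 36.1, 17.6 and 28.5 FPKM at P0. Its log2 change was -3.15 ± 0.35 (SE, limma adjusted p = 7.22e-05). The stretch of 15 RefSeq genes around it includes Bmp10, a growth factor of the developing heart, and no gene was assigned.

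A pair of neighbouring rows on chromosome 14 both fell. NONMMUT020952 (chr14:55590746-55591524) was at 6.50, 1.25 and 2.58 FPKM at P3 and at 0.289, 0.155 and 0.212 FPKM at P7, after 33.4 to 41.6 FPKM at P0. NONMMUT020956 (chr14:55600011-55600850) was at 1.24, 0.377 and 0.632 FPKM at P3 and at 0, 0.0358 and 0.0654 FPKM at P7, after 4.33 to 4.61 FPKM at P0. Their log2 changes were -3.20 ± 0.51 and -2.57 ± 0.37 (SE), with limma adjusted p of 0.00359 and 0.00147. At both, P3 replicate 2 was the lowest P3 library and replicate 1 the highest, yet no P3 value reached the P7 range. The stretch around them holds 68 RefSeq genes, among them Myh6, Myh7 and the noncoding RNA Mhrt between those 2 genes, and which of the 68 the rows belong to was not determined. The last of the rows that kept the call without any 1 library, NONMMUT007218 (chr10:106370573-106373008), was at 4.21, 3.79 and 3.15 FPKM at P3 and at 1.48, 0.643 and 0.710 FPKM at P7. It differed from the others in its P0 level, 1.78 to 2.61 FPKM, which lay between the 2 later ages (log2 change -1.95 ± 0.26 SE, limma adjusted p = 0.000684). All 5 of these rows were also called with NONMMUT071594 as a library term. With the ribosomal RNA set as a term, NONMMUT020952 and NONMMUT020956 lost the call (limma adjusted p = 0.0971 and 0.0536). With only P3 replicate 2 kept at P3, these 2 rows and NONMMUT007218 lost it under both splits (limma adjusted p 0.151 to 0.398). A pseudocount of 1 ended the call of NONMMUT020956 and of TCONS_00049214 (0.0971 and 0.113). Over the 21 alternatives, limma adjusted p reached 0.382 for NONMMUT020952, 0.398 for NONMMUT020956, 0.244 for NONMMUT007218 and 0.113 for TCONS_00049214, with lowest values of 0.00124, 0.000797, 5.809e-05 and 6.185e-05.

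The other 10 of the 15 highest-ranked fallers lost the call without at least 1 library, and P3 replicate 1 was one of these libraries for each. NONMMUT038691 was at 2.41, 1.87 and 1.28 FPKM at P3 and at 0.0965, 0.207 and 0.566 FPKM at P7 (log2 change -2.47 ± 0.41 SE, limma adjusted p = 0.00663, and 0.0630 without P3 replicate 1, in a range of 0.00183 to 0.341 over the 21 alternatives). TCONS_00059174 fell from 0.385, 0.229 and 0.605 FPKM to 0 in all P7 libraries (log2 change -2.27 ± 0.42 SE, limma adjusted p = 0.0112). TCONS_00063989, on the X chromosome, fell from 1.44, 1.22 and 1.62 FPKM to 0.338, 0.0603 and 0.550 FPKM. These latter 2 rows, NONMMUT035245 and TCONS_00063082 each lost the call without P3 replicate 1 or 3 (limma adjusted p 0.0512 to 0.0685).

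NONMMUT019020, matched to 2610204G07Rik, an antisense transcript of unknown role, fell from 0.671, 0.266 and 0.451 FPKM to 0, 0.0607 and 0.0554 FPKM, and lost the call without P3 replicate 1 or 3 or P7 replicate 1 (limma adjusted p 0.0668 to 0.105). TCONS_00057191 lost it without P3 replicate 1 or P7 replicate 2 or 3 (0.0818 to 0.118), and TCONS_00016491 without P3 replicate 1 or P7 replicate 1 or 3 (0.0842 to 0.120). TCONS_00062014 and NONMMUT005624 kept it only without P3 replicate 2 (0.0584 to 0.219 without the others). Levels of these 10 rows were low, with P3 means between 0.375 and 1.85 FPKM.

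**Figure D4:**
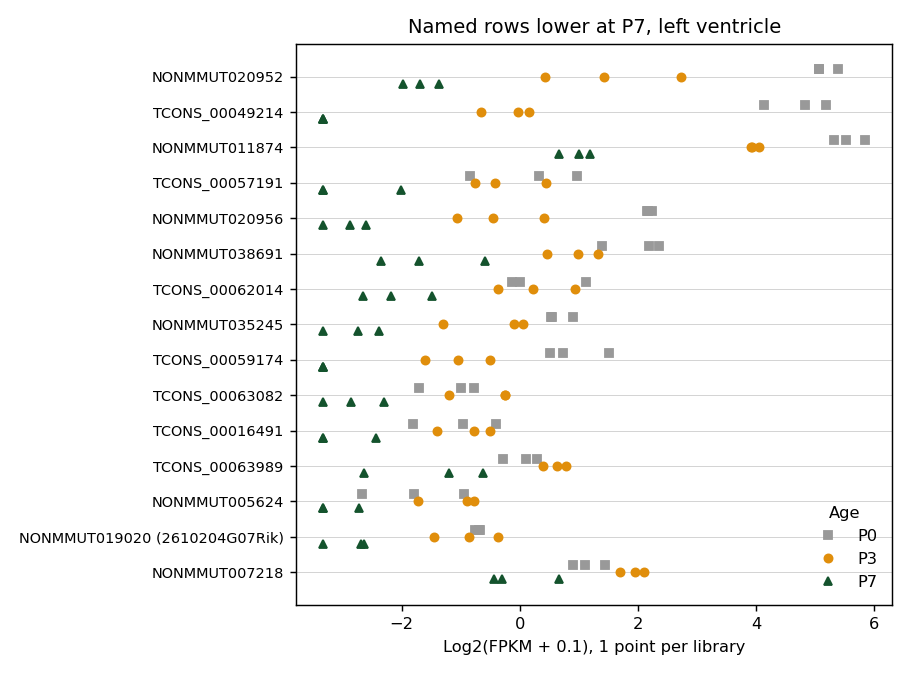
Log2(FPKM + 0.1) of the 15 highest-ranked fallers in each left ventricle library, 1 point per library, at P0 (squares), P3 (circles) and P7 (triangles). The P7 points lie to the left of all P3 points, and points at the left edge are libraries in which the row is listed at 0.

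A total of 17 rows, 7 higher and 10 lower, kept the call with any 1 of the 6 libraries left out. Besides the 11 above, 6 fell outside the ranking rule and are named after their values were seen. With only P3 replicate 2 kept at P3, each of these 6 lost the call under at least 1 of the 2 splits (limma adjusted p 0.101 to 0.435), and NONMMUT004754 also lost it with the ribosomal RNA set as a term (0.0536). On chromosome 7, TCONS_00051827 (chr7:3424525-3425368) fell from 12.2, 10.8 and 8.67 FPKM to 3.70, 1.82 and 2.77 FPKM, and its neighbour NONMMUT059684 (chr7:3436096-3436379) from 4.03, 3.71 and 2.56 FPKM to 0.792, 1.06 and 0.677 FPKM. Their log2 changes were -1.94 ± 0.27 and -1.90 ± 0.28 (SE, limma adjusted p = 0.00121 and 0.00147). Their P0 values, 5.48 to 11.2 and 1.73 to 3.15 FPKM, overlapped those at P3 and lay above those at P7.

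TCONS_00055858 (chr7:129177725-129179488) fell from 3.10, 2.47 and 2.95 FPKM to 1.18, 0.700 and 0.592 FPKM, after 8.70 to 10.1 FPKM at P0 (log2 change -1.71 ± 0.22 SE, limma adjusted p = 0.000546). It lies in a stretch of Gga2, Ears2, Ubfd1 and Ndufab1, of which Ears2 encodes the mitochondrial glutamyl-tRNA synthetase and Ndufab1 a subunit of respiratory complex I. NONMMUT004754 (chr10:12810497-12844821) fell from 3.67, 1.59 and 2.4 FPKM to 0.427, 0.670 and 0.704 FPKM. TCONS_00026073 (chr17:26965825-26972607) fell from 13.5, 9.95 and 10.4 FPKM to 5.91, 4.86 and 5.34 FPKM, a log2 change of -1.05 ± 0.15 (SE, limma adjusted p = 0.00147).

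The sixth, TCONS_00022229 (chr16:24097633-24098149), rose in the LV from 0, 0.051 and 0 FPKM to 0.544, 0.349 and 0.850 FPKM, a change of 2.50 ± 0.35 (SE) log2 units, with a limma adjusted p of 0.00118. RV libraries were different: it was at 0.0496, 0 and 0.174 FPKM at P3 and listed at 0 in both P7 libraries. The difference between the ventricles in its change had the smallest p of all rows, 7.87e-06, and did not pass after adjustment (limma adjusted p = 0.0872).

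Of the 148 called rows, 13 matched a reference gene, beside 1674 of the 11079 rows tested. The most abundant riser among them was Gm39214 (NONMMUT066471, chr8:88254715-88288994), a noncoding RNA gene near Itfg1 and Phkb. Overlap with either gene was not determined. Phkb encodes the beta subunit of phosphorylase kinase, which controls glycogen breakdown. Gm39214 was at 6.45, 5.52 and 5.35 FPKM at P3 and at 11.3, 10.5 and 11.8 FPKM at P7, after 1.64 to 2.89 FPKM at P0, with no overlap between ages. Its log2 change was 0.95 ± 0.22 (SE, limma adjusted p = 0.0404). Without any 1 of the 6 libraries the limma adjusted p was 0.0725 to 0.149, so the call needs all of them. In the RV it rose from 3.99, 2.37 and 2.78 FPKM to 8.62 and 7.06 FPKM (log2 change 1.36, limma adjusted p = 0.0116).

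The faller Mccc1os (NONMMUT042600, chr3:35898755-35924028), an antisense RNA beside Mccc1, a gene of leucine breakdown, was at 1.02, 0.959 and 0.683 FPKM at P3 and at 0.302, 0.287 and 0.197 FPKM at P7. Its P0 values, 0.303 to 0.534 FPKM, were below those at P3. The log2 change was -1.45 ± 0.30 (SE, limma adjusted p = 0.02), and the limma adjusted p was 0.106 without P3 replicate 1, 0.0560 without P7 replicate 2 and 0.0869 without P7 replicate 3, in a range of 0.0124 to 0.449 over the 21 alternatives. In the RV it also fell, from 1.32, 1.89 and 1.43 FPKM to 0.289 and 0.455 FPKM (log2 change -1.81, limma adjusted p = 0.0116).

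The promoters of these 2 genes are shown because they are the matched noncoding genes called in the same direction in both ventricles with the highest LV level in each direction. Each is a window of 300 bases, most of it before the RefSeq start, 5′ to 3′ on the gene's strand, on GRCm38.p6, which is not the build of the row positions above. Capitals mark TATAAA or its reverse complement.
Gm39214, chr8:85726149-85726448, plus strand: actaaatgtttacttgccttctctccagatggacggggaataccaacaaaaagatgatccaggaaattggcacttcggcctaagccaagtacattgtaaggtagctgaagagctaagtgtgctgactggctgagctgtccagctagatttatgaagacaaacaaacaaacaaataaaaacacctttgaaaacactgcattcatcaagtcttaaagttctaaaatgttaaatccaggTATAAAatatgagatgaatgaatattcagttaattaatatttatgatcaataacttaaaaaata
Mccc1os, chr3:35999663-35999962, plus strand: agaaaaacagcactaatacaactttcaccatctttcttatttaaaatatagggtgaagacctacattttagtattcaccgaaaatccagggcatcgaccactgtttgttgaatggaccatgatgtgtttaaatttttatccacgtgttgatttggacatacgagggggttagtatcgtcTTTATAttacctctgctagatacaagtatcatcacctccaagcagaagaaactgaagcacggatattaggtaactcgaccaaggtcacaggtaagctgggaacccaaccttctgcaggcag
The motifs searched, on both strands, were CAGCTG (an E-box), CATTCC (the MCAT element of muscle genes) and TATAAA, which do not overlap each other here. Of these, the last was found in both windows and in 13.6% of 32851 RefSeq promoters of the same length. Neither window held CAGCTG, found in 16.3% of promoters, or CATTCC, found in 14.7%. The GC content was 34.0% for Gm39214 and 40.3% for Mccc1os.

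Of the other matched rows, only 4 with low levels are described here. A630072L19Rik, an antisense RNA, rose from 0.123, 0.0867 and 0.0551 FPKM to 0.481, 0.396 and 0.325 FPKM. A row matched to a retained-intron transcript of Hey2, which encodes a transcriptional repressor of ventricular development, fell from 0.302, 0.227 and 0.266 FPKM to 0.0255, 0 and 0.0623 FPKM (log2 change -1.52 ± 0.32 SE, limma adjusted p = 0.0218). Without P3 replicate 1 or 3 or P7 replicate 1 or 2 its limma adjusted p was 0.0614 to 0.105. Retained-intron rows of Sorbs2, a Z-disc adaptor protein gene, and of Plcb2, a phospholipase gene, fell from 0.749, 0.398 and 0.592 to 0.149, 0.221 and 0.201 FPKM and from 0.269, 0.220 and 0.257 to 0.0493, 0.0132 and 0.0241 FPKM. Such rows share exons with the coding transcripts, and reads of the 2 cannot be told apart here. None of these 4 matched rows kept the call without P3 replicate 1 (limma adjusted p 0.0685 to 0.223). A630072L19Rik and Sorbs2 kept it only without P3 replicate 2, and Plcb2 only without P3 replicate 2 or P7 replicate 1.

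Called rows within 50 kilobases of each other formed 9 stretches with 19 rows. All 19 were lower, the direction of 118 of the 148 calls. How often tested rows lie this close to each other was not determined. In 7 of the stretches the rows had different positions, and in the others they had the same position and can share reads. On chromosome 8, 3 rows in nearly the same place fell: TCONS_00058571 (chr8:59783086-59799700) from 10.2, 8.89 and 10.6 FPKM to 5.85, 4.43 and 5.95 FPKM, TCONS_00058570 from 3.87, 3.89 and 3.67 FPKM to 2.16, 2.22 and 2.08 FPKM, and NONMMUT065691 from 8.37, 4.61 and 6.71 FPKM to 1.85, 2.67 and 2.70 FPKM. They can share reads and are not independent. Their log2 changes were -0.87 ± 0.16, -0.80 ± 0.19 and -1.39 ± 0.23 (SE). The stretch around them holds 10 RefSeq genes, among them Hand2, a transcription factor of heart development, and its neighbouring noncoding gene Hand2os1. NONMMUT065691 lost the call only without P3 replicate 1 (limma adjusted p = 0.0630, in a range of 0.00196 to 0.538 over the 21 alternatives), TCONS_00058571 also without P3 replicate 3 and P7 replicate 2 (0.0580 and 0.0575), and TCONS_00058570 without any 1 library (0.0725 to 0.151).

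Called rows were mostly those with higher levels. Of the 148, 112 were in the highest of 4 equal classes of mean level (above 0.495 FPKM), 24 in the next, 11 in the one below and 1 in the lowest. Rows with IDs that begin with TCONS made up 41 of the calls, or 2.45% of 1672 tested. Rows with IDs that begin with NON made up 107, or 1.14% of 9407 tested. The call rates of the 2 kinds were not compared by a test. By chromosome, chromosome 8 had the most calls, 3 higher and 11 lower of 587 rows. This is 2.39%, beside 1.34% of all rows tested, 2.10% on chromosome 13 and 2.04% on the X chromosome. The chromosome 8 calls include the neighbouring rows above that can share reads, and the rates were not compared by a test. The mitochondrial genome had 1 call of 8 rows tested, NONMMUT071607 (chrM:15763-16188), at 57.7, 21.9 and 50.6 FPKM at P3 and at 15.9, 11.8 and 9.78 FPKM at P7. Its log2 change of -1.70 ± 0.40 (SE, limma adjusted p = 0.0404) stands beside a split of the P3 libraries, of which replicate 2 was the lowest but above every P7 library. It lost the call with NONMMUT071594 as a library term (limma adjusted p = 0.0565, in a range of 0.00867 to 0.448 over the 20 alternatives that tested it) and without any library other than P3 replicate 2.

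No row of the 5 gene lists passed the adjusted test. Of 19 heart and muscle noncoding RNAs, 2 had matched rows that could be tested, with a median log2 change of -0.16 beside -0.22 for all rows. Neither passed, and their changes had opposite signs. Carmn, a noncoding gene of muscle lineages, had means of 0.141 ± 0.0276 FPKM at P3 and 0.181 ± 0.152 FPKM at P7 (SD, n = 3). The other, Mir1a-1hg, the host gene of the muscle microRNA miR-1a, had means of 0.223 ± 0.172 FPKM at P3 and 0.127 ± 0.0768 FPKM at P7 (SD, n = 3). Imprinted noncoding RNAs had 13 rows from 4 genes, 10 of them below 0, with a median of -0.47. The main row of Meg3, a maternally expressed RNA, was at 4.97 ± 2.47 FPKM at P3 and 3.27 ± 0.416 FPKM at P7 (SD, n = 3; limma adjusted p = 0.606). Host genes of small nucleolar RNAs and small structured RNAs had 30 rows from 7 genes, most often Gas5, and a median of -0.27. The list labelled nuclear and widely expressed had 12 rows from 4 genes (Tug1, Dleu2, Norad and, most often, Crnde) and a median of -0.53. At an unadjusted p under 0.05, each of these latter 3 lists had 3 rows, and 1566 of all 11079 rows were past that level. The list of cell type markers had 8 rows from 4 genes with a median of -0.43, too few to check the cell makeup of the libraries. Mir142hg, the host of a blood cell microRNA, had means of 0.377 ± 0.266 FPKM at P3 and 0.346 ± 0.429 FPKM at P7 (SD, n = 3) in the row NONMMUT011371, and of 0.0960 ± 0.166 and 0.295 ± 0.386 FPKM in its second row, NONMMUT011372, with log2 changes of -0.45 and 0.81 that did not pass.

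In the RV, which shares no library with the LV comparison but shares the fit, 82 rows were called between P3 and P7, or 0.74% of those tested, 25 higher and 57 lower. The count was 12 without RV P7 replicate 1, 43, 38 and 49 without RV P3 replicates 1, 2 and 3, 29 and 39 with the ribosomal RNA set and with NONMMUT071594 as a library term, and 37 and 2 with only the P7 set of each split. Of the 82, 11 higher and 33 lower rows were also called in the LV in the same direction, and 0 in the opposite one. The shared rows are 29.7% of the LV calls and 53.7% of the RV calls, shares that rest on both counts of 148 and 82. The RV change had the sign of the LV change at 29 of the 30 higher rows and 112 of the 118 lower rows, where 31.8% of all rows were above 0 and 68.2% below it in the RV. RV libraries had the same difference at NONMMUT071594 as those of the LV, so a library difference common to both ventricles and a change with age cannot be told apart by this comparison. The median RV log2 change was 0.85 for the rows higher in the LV, against 1.40 in the LV, whose values chose these rows. For the rows lower in the LV it was -0.96 against -1.38.

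Both leading risers also rose in the RV. NONMMUT029111 was at 0, 0 and 0.155 FPKM at P3 and at 1.25 and 1.14 FPKM at P7 (log2 change 3.24 ± 0.41 SE, limma adjusted p = 0.000661). TCONS_00038901 was at 0, 0.264 and 0.109 FPKM at P3 and at 1.51 and 2.14 FPKM at P7 (log2 change 3.27 ± 0.45 SE, limma adjusted p = 0.00185). TCONS_00045588 rose by a log2 change of 1.47 ± 0.17 (SE, limma adjusted p = 0.000451), from 4.96, 6.52 and 6.03 FPKM to 13.6 and 19.2 FPKM.

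The test of the difference between the ventricles called 0 rows with limma, with 426 at an unadjusted p under 0.05 and a smallest adjusted p of 0.0872. It treated LV and RV libraries as independent. With replicate number as a block it also called 0 rows, but pairing of the ventricles by animal was not modelled. Among the top fallers, NONMMUT011874 fell less in the RV, from 7.32, 11.9 and 6.13 FPKM to 4.61 and 2.84 FPKM, a log2 change of -1.14 ± 0.26 (SE) against -3.01 in the LV. Its difference had an unadjusted p of 4.22e-05 and a limma adjusted p of 0.234. TCONS_00063082 was at 0.744, 0.335 and 0.744 FPKM in the LV at P3 and at 0, 0.0382 and 0.105 FPKM at P7, while its RV values were 0.814, 0.276 and 0.457 FPKM at P3 and 0.351 and 0.714 FPKM at P7. The RV values overlapped between ages, and the difference between ventricles had an unadjusted p of 0.0013 and a limma adjusted p of 1.

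**Figure D5:**
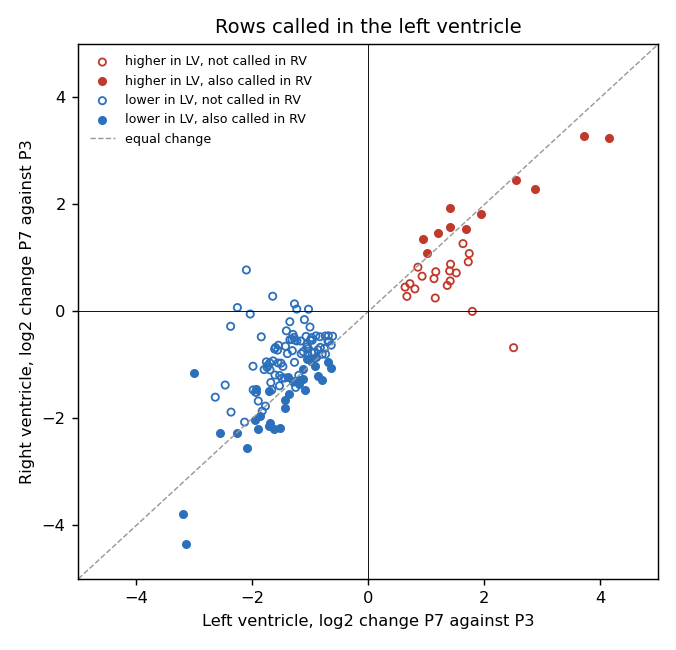
Log2 change from P3 to P7 in the right ventricle against that in the left ventricle, 1 point per row called in the left ventricle, red for higher and blue for lower, filled where the row was also called in the right ventricle. The dashed line marks equal change, and 29 of 30 red points and 112 of 118 blue points have the same sign in both ventricles.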

How the data were processed

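Strand-specific RNA-seq values from LV and RV of male C57Bl/6 mice were analysed. STAR 2.4.0j and mm10 are named per the submitters' processing notes. The steps of annotation, counting and normalization were not given in the sources used here. Per library and row, the authors deposited 1 value with no unit named, and it was read as FPKM because, within a library, values multiplied by row span fell on multiples of 0.5 of a constant step (64.3 to 67.8% of low values within 0.01 of a fragment). TPM is not excluded by this. Counts are not in the tables, so precision rests on the spread between replicates.

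Values were taken as log2(FPKM + 0.1) and fitted with limma 3.58.1 in R 4.3.3, with 6 group means over the 17 libraries, variance trend and robust moderation. Rows needed 0.1 FPKM in 2 libraries. Tests were two-sided with Benjamini-Hochberg adjustment over all 11079 rows at 0.05. The named rows are up to 15 called rows per direction with the largest changes, a mean level above the median of rows tested and no overlap of the P3 and P7 libraries. In simulated data for the LV comparison of 11079 rows, 72% of changes of 2 log2 units and 16% of changes of 1 log2 unit were recovered, beside 7 false calls. The simulated noise was independent between rows and libraries, and changes were placed only in rows at or above the median level. Library differences shared by many rows were not simulated, so these rates and the false calls need not hold for the real libraries. Replicate libraries correlated at 0.897 to 0.912 (Pearson, log2 values, across rows, which are not independent replicates).

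Some row positions lie beyond the last gene of mm10, on 10 chromosomes, or on unplaced sequences of older builds, under 8 names. Positions were not converted. Rows were matched to GENCODE M21 or RefSeq names by equal bounds (114 rows), by a span length unique on its chromosome with a spacing shared by 2 other rows within 2 megabases (2675 rows), or, a step added after the data were seen, by a non-unique span with that spacing (1440 rows). RefSeq gene order between flanking matched rows was also added then. Comparison and gene lists were chosen with earlier results of these data known. The P7 libraries fell in the higher of the 2 sets split by mitochondrial ribosomal RNA, so the planned restriction to 1 set used the set that holds them.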

Additional observations from a re-analysis of the deposited data

How the results depend on the processing

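Of 3066 values of called rows under alternatives, 0 reversed and 1511 lost the call. The P3 and P7 libraries did not overlap at these rows, so fits that only left out libraries could not reverse a change. The LV count of 148 became 53 without a filter, 77 with only the 6 compared libraries, 74 without the variance trend, 14 with the ribosomal RNA library set as a term and 13 with only the P7 set. With alternatives chosen after seeing the data, it became 51 with the set of NONMMUT071594 as a term and 4 with only its P7 set, where P3 keeps 1 library whose spread is assumed equal to that of the other groups. Leaving out 1 library gave 18 to 201. Median scaling gave 128, scaling to the sum outside the mitochondrial genome 139, pseudocounts of 0.01 and 1 gave 156 and 114, a stricter filter 209, rows summed per position 159 and rows outside the mitochondrial genome 147. The median change of -0.22 reversed to 0.0238 under median scaling by construction. It was -0.3735 and -0.0478 with pseudocounts of 0.01 and 1, -0.0665 without a filter, -0.0562 and -0.0248 with the ribosomal RNA set as a term and with only its P7 set, and -0.0142 with only the P7 set of NONMMUT071594. The RV count of 82 became 47 without the trend, 29 and 37 for the ribosomal RNA set, 39 and 2 for the other set, and 12 to 60 without 1 library. The difference between ventricles had 0 calls except 3 without a filter and 2 without RV P3 replicate 2 (0 to 2 without 1 library). Same-numbered P3 and P7 libraries did not deviate together (r -0.0577, -0.0321 and 0.00892 across rows), and the replicate block gave 156 calls, 34 higher and 122 lower. Apart from the reversal, the cause of these changes was not tested. In simulated data, 16% of changes of 1 log2 unit were called, so most changes of that size would be missed under the simulated settings. Those settings had no library differences shared between rows and no changes in rows below the median level.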

Other observations

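Of the 20 rows outside the mitochondrial genome with the highest mean, 3 were called, beside 1.34% of all rows tested and 112 of the 2770 rows in the highest class of level. The log2 changes of the 20 ran from -0.74 to 0.63. NONMMUT0047 (an ID as deposited, with no position) was at 118, 131 and 130 FPKM at P3 and at 84.2, 72.5 and 69.8 FPKM at P7 (log2 change -0.74 ± 0.14 SE, limma adjusted p = 0.0144). NONMMUT065779 (chr8:63990229-63991987) fell from 112, 69.2 and 89.97 FPKM to 60.5, 53.4 and 51.8 FPKM, with P3 replicate 2 nearest to P7. NONMMUT004030 (chr1:182354643-182354929) rose from 38.4, 29.0 and 41.3 FPKM to 58.5, 50.0 and 58.8 FPKM. Each lost the call without P3 replicate 1 and 3 other libraries (limma adjusted p 0.0514 to 0.103). For NONMMUT0047 and NONMMUT065779 these were P3 replicate 3 and P7 replicates 2 and 3. For NONMMUT004030 they were P3 replicate 2 and P7 replicates 1 and 3.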
